A study of Mus musculus with 4 samples.

Results

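Chil1 encodes a secreted chitinase-like glycoprotein, also called Brp39 or Chi3l1, and is 1 of the 31053 genes counted in single-cell RNA libraries of mouse mammary epithelium. It was chosen by its own measured values, the Chil1 UMIs and CPM per library and epithelial class in these same data, so its levels and contrasts are given as a description with no test. The libraries came from 4 FVB mice that all carried the genotype Tfap2cfl/fl / Krt5-CreERT2, in which both copies of Tfap2c are floxed and a tamoxifen-activated Cre is expressed from the Krt5 promoter, a promoter of basal cells. Injections began at 4 weeks of age, with corn oil, the vehicle, in 2 mice and 4-hydroxytamoxifen (4OHT), which activates the Cre, in 2 mice, and cells were collected at post natal week 9. The fourth mammary glands were used, 1 mouse per library, and the study's question was whether mammary stem cells need Tfap2c. The labels give the injection course as 5 days in one place and as a longer one in another. Both groups therefore share the floxed alleles and the Cre, and they differ by the injected agent.

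Chitinase-like proteins keep the fold of the glycoside hydrolase family 18 chitinases and still bind chitin-like sugars, but have lost the catalytic residues. Chil1 is secreted by macrophages, neutrophils and epithelial cells, and is known as a marker of inflammation and tissue remodelling that acts on cells through receptors such as Il13ra2. The mammary gland holds an outer basal, or myoepithelial, layer and an inner luminal layer, which contains milk-lineage progenitors and hormone-sensing cells. In this gland Chil1 is known as a gene of lactation and involution, the period when milk-secreting tissue is cleared after weaning.

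Chil1 (ENSMUSG00000064246) is a plus-strand gene of chromosome 1, spanning 134182176 to 134190181 in GENCODE M21 on GRCm38, which lists 8 transcripts of it, 5 of them protein-coding. The chitinase gene Chit1 ends 30635 bases before it on the same strand, and Mybph begins 3266 bases after it. The 250 bases before the RefSeq start of Chil1 (GRCm38.p6, plus strand, chr1:134181906-134182155) are shown because the floxed gene encodes an AP-2 factor and the Chil1 level differed between the labels. Capitals mark its 2 matches to the E-box CANNTG, the first at 201 to 196 and the second at 42 to 37 bases before the start.
Chil1 promoter: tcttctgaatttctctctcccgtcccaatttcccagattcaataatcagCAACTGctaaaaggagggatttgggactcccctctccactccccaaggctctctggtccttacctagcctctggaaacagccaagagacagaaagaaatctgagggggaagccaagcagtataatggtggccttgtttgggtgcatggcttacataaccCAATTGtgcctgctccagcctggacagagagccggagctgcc
An E-box match was present in 66.2% of 32851 promoters of this length, searched on both strands. The AP-2 letters GCCNNNGGC had no match in the Chil1 window and a match in 13.7% of promoters. The window also held no match to the STAT letters TTCNNNGAA (7.02% of promoters), the AP-1 letters TGANTCA (6.75%), the C/EBP letters TTGCNNAA (9.56%) or the TEAD letters GGAATG (12.6%). These matches describe letters in 1 window and say nothing of binding.

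Counts were unique molecular identifiers (UMIs), each standing for 1 captured transcript, and a level is given as CPM, the Chil1 UMIs of a group of cells scaled to a total of 1e+06 UMIs of those cells. The libraries held 3546 to 5545 cell barcodes and 17351950 to 22017878 UMIs, with a median of 3055 to 5299.5 UMIs per cell. Of all 18223 barcodes, 155 sequences occurred in more than 1 library. Cells with at least 1000 UMIs were classed from basal (Krt5, Krt14, Krt17, Acta2) and luminal (Krt8, Krt18, Krt19) sums, and luminal cells were called hormone-sensing or progenitor from Ly6d, Fxyd2 and Gpx3 against Wfdc18, Csn3 and Ltf. This gave 7028 basal, 5629 luminal progenitor and 1168 hormone-sensing cells, and 3671 cells fitted no class. Markers that the rule did not use were checked. Trp63, Myh11, Mylk and Oxtr summed to 735 to 987 CPM in basal cells and 5.29 to 24.2 CPM in the luminal classes. Elf5, Kit, Aldh1a3 and Cd14 summed to 660.3 to 1208 CPM in luminal progenitor cells and at most 50.9 CPM elsewhere, and 6 hormone-sensing markers, Esr1 and Pgr among them, to 898 to 1484 CPM in hormone-sensing cells and at most 102 CPM elsewhere. Of 4 fibroblast markers, Dcn was at 243, 50.6, 1325 and 237 CPM in hormone-sensing cells of corn oil 1, corn oil 2, 4OHT 1 and 4OHT 2, while Col1a1, Col1a2 and Col3a1 had 0 to 5 UMIs each. The part of Dcn-bearing cells in the Chil1 values was not tested. Group names are those of the labels: Tfap2c, the targeted gene, stood at 389 and 285 CPM in basal cells of corn oil 1 and 2 and at 285 and 325 CPM in those of 4OHT 1 and 2. The libraries labelled 4OHT thus did not separate from the others by Tfap2c, a 3′ count does not measure the deletion, and every direction below rests on the labels.

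Chil1 was a gene of basal and luminal progenitor cells and was scarce in hormone-sensing cells. Over the 4 libraries its level was 485 ± 205 CPM (SD, n = 4) in basal cells, 302 ± 172 CPM in luminal progenitor cells and 17.1 ± 8.45 CPM in hormone-sensing cells. In basal cells it was 539 CPM in corn oil 1, 742 in corn oil 2, 265 in 4OHT 1 and 393 in 4OHT 2. Both corn oil libraries lay above both 4OHT libraries, as they did for 17.6% of 10788 genes. In luminal progenitor cells it was 555 CPM in corn oil 1, 253 in corn oil 2, 226 in 4OHT 1 and 173 in 4OHT 2. The groups again did not overlap, as for 17.5% of 10120 genes, but corn oil 2 stood closer to 4OHT 1 than to corn oil 1. In hormone-sensing cells it was 27.0 and 15.3 CPM in corn oil 1 and 2 and 19.3 and 6.69 CPM in 4OHT 1 and 2, so the groups overlapped. The exact Poisson 95% intervals of the nearest libraries of the 2 groups were 523 to 555 CPM (corn oil 1) and 378 to 408 CPM (4OHT 2) in basal cells. In luminal progenitor cells they were 240.1 to 265.6 CPM (corn oil 2) and 216 to 237 CPM (4OHT 1), which lay close together. These intervals, like all others here, cover counting error only.

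**Figure D1:**
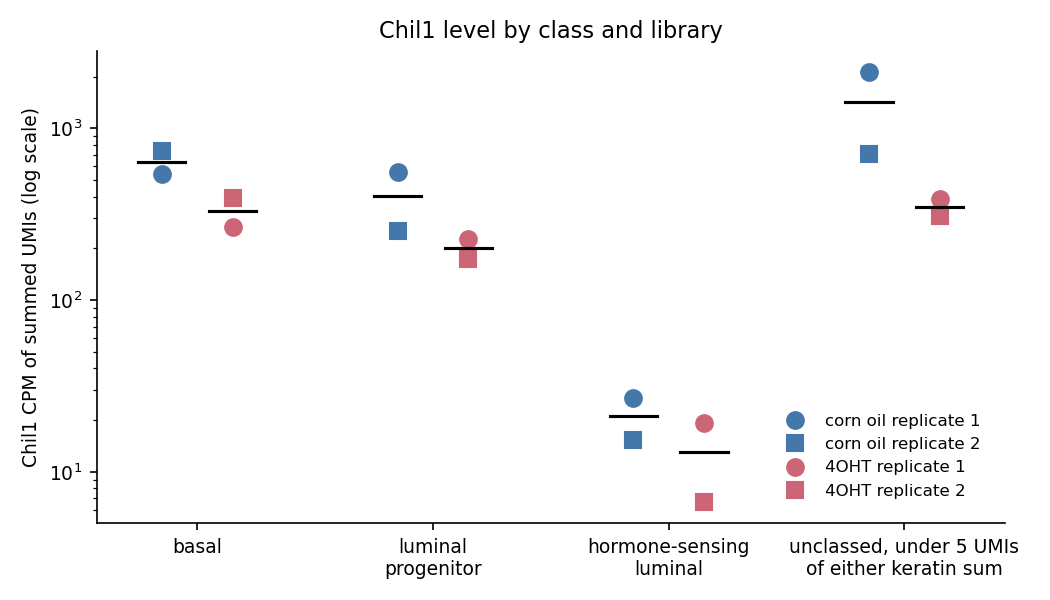
Chil1 level (CPM of summed UMIs, log axis) in 3 epithelial classes and in unclassed cells with under 5 UMIs of either keratin sum. Each point is 1 library and each black bar the mean of a group's 2 libraries. Basal and luminal progenitor cells lie between 173 and 742 CPM, and hormone-sensing cells at 27.0 CPM or below.

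The order of the classes was not the same in each library. Basal cells had 2.94 times the luminal progenitor level in corn oil 2 and 2.27 times in 4OHT 2, but 1.17 times in 4OHT 1 and 0.970 times in corn oil 1. The difference of luminal progenitor from basal cells was -0.44 on the log2 scale (SE 0.25) in a fit with library as a block. It was -0.73 (SE 0.21) with library totals alone and -0.12 to -0.73 when 1 library was left out. DESeq2 gave -0.41 with a larger SE of 0.44. Luminal progenitor cells exceeded hormone-sensing cells by 20.6, 16.5, 11.7 and 25.9 times in corn oil 1, corn oil 2, 4OHT 1 and 4OHT 2, so that step of the order was present in each library. Basal cells held 37.5%, 62.2%, 35.0% and 56.8% of a library's Chil1 UMIs, in the same library order. Luminal progenitor cells held 34.7%, 19.6%, 42.2% and 23.6%, and hormone-sensing cells at most 0.667%. Cells that fitted no class held 27.4%, 17.4%, 21.9% and 19.0%.

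Chil1 was found in a minority of cells of each class, and a few cells held most of it. To compare cells of unequal depth, each was thinned to 2000 UMIs drawn at random, and 34 to 379 shallower basal cells and 34 to 140 luminal progenitor cells per library were left out. After thinning, a Chil1 UMI was present in 28.7% and 35.8% of basal cells of corn oil 1 and 2 and in 21.8% and 26.8% of those of 4OHT 1 and 2. The exact Clopper-Pearson 95% intervals of corn oil 1 (26.4% to 31.1%) and 4OHT 2 (24.8% to 28.9%) overlapped, although the 2 groups of shares did not. In luminal progenitor cells the thinned share was 20.4% and 21.3% with corn oil and 12.9% and 16.1% with 4OHT. Group means were 20.8% ± 0.678 (SD, n = 2) and 14.5% ± 2.27, and the groups did not overlap. How many genes lack such an overlap in thinned shares is not given here. In CPM it was 17.6% of 10788 genes in basal cells and 17.5% of 10120 genes in luminal progenitor cells. Without thinning, the shares were 42.3%, 42.8%, 29.6% and 31.9% in basal cells and 33.0%, 33.7%, 19.2% and 22.7% in luminal progenitor cells, in the order corn oil 1, corn oil 2, 4OHT 1, 4OHT 2. Thinned hormone-sensing cells had shares of 7.28%, 3.37%, 2.12% and 1.38%.

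Cells with endothelial markers and almost no keratin, a type outside the epithelium, served as the background for free RNA. A Chil1 UMI was present in 10.2% of 59 such cells of corn oil 2 and 3.57% of 28 of 4OHT 1 (median depths 2462 and 2688.5 UMIs), and in 0 of 92 cells of 4OHT 2, which allows a share of up to 3.26%. Thinned to 2000 UMIs, the share was 4.76% of 42 cells in corn oil 2 and 4.76% of 21 in 4OHT 1. In these 2 libraries the thinned hormone-sensing shares, 3.37% and 2.12%, were no higher, at median depths before thinning of 4745.5 and 6152 UMIs. In 4OHT 2 the endothelial share was 0 of 40 thinned cells, which allows up to 7.5%, and the hormone-sensing share was 1.38%. Corn oil 1 had 4 endothelial cells, too few for a background of its own. Of the 30 Chil1 UMIs of hormone-sensing cells in 4OHT 1, 19 came from 1 cell. Described without a test, the thinned basal and luminal progenitor shares lay above the exact 95% interval of the endothelial share in 2 libraries. That interval was 0.582% to 16.2% in corn oil 2 (42 cells) and 0 to 8.81% in 4OHT 2 (40 cells). In 4OHT 1 it was 0.120% to 23.8% from 21 cells and held both shares, so the values did not separate there. The width of these intervals follows the number of endothelial cells.

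The spread between cells was far wider than counting alone gives. The variance of thinned Chil1 counts was 6.89, 10.1, 5.52 and 9.15 times their mean in basal cells of corn oil 1, corn oil 2, 4OHT 1 and 4OHT 2, and 13.1, 3.44, 7.92 and 4.27 times in luminal progenitor cells. The 10% of cells richest in Chil1, before thinning, held 69.5% to 75.3% of its UMIs in basal cells and 71.7% to 90.8% in luminal progenitor cells. A single basal cell of 4OHT 2 had 177 Chil1 UMIs. Positive luminal progenitor cells of corn oil 1 carried 4.85 UMIs on average after thinning, against 2.30 in corn oil 2, at nearly the same share of positive cells. Luminal progenitor cells with 10 or more UMIs made up 2.88% in corn oil 1 and 0.273% in corn oil 2, and 0.920% and 0.462% in 4OHT 1 and 2. The gap between the 2 corn oil libraries in luminal progenitor cells therefore lay in the number of UMIs per positive cell, not in how many cells were positive.

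**Figure D2:**
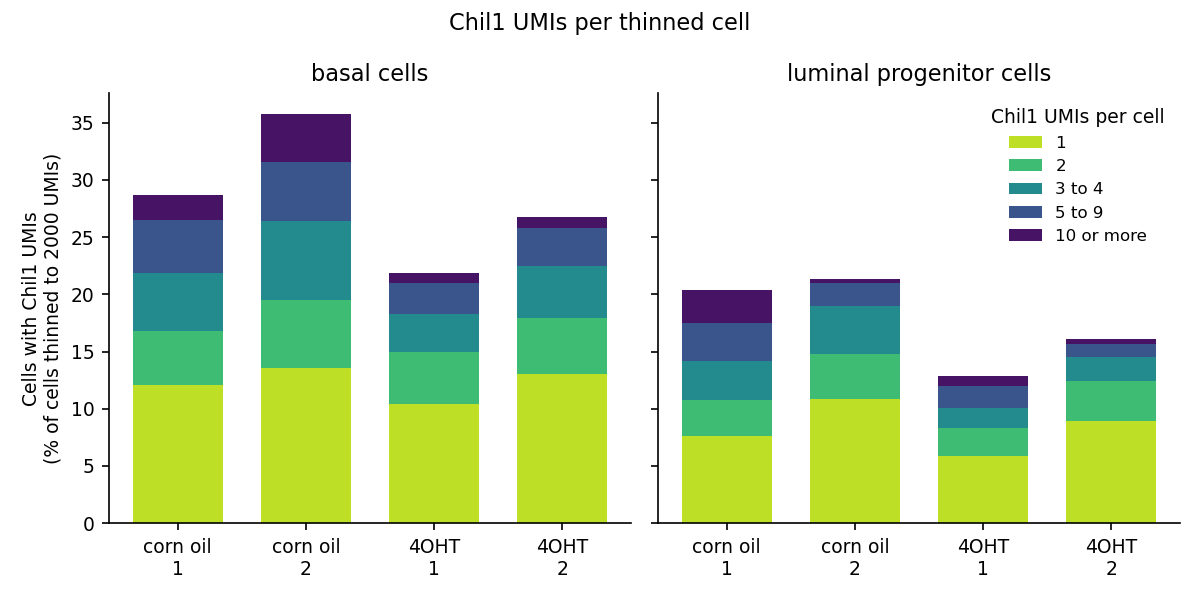
Share of cells (%, y axis) with 1, 2, 3 to 4, 5 to 9, or 10 or more Chil1 UMIs after thinning to 2000 UMIs, stacked for each library. The total height is the share of positive cells, 28.7% and 35.8% in basal cells of the corn oil libraries against 21.8% and 26.8% with 4OHT.

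The treatment comparison asked how the libraries labelled 4OHT differed from those given corn oil. In basal cells the mean Chil1 level was 640.5 ± 144 CPM with corn oil and 329 ± 90.1 CPM with 4OHT (SD, n = 2 each), a ratio of 1.95. The fitted log2 difference, 4OHT minus corn oil, was -0.90 (SE 0.33), and within equal replicate numbers it was -1.02 and -0.92. In luminal progenitor cells the means were 404 ± 214 and 199.8 ± 37.3 CPM, a ratio of 2.02, with a fitted difference of -0.94 (SE 0.38). Here 1 library decided the value: without corn oil 1 the fitted difference was -0.20 (SE 0.43). In basal cells, leaving out each library in turn gave -0.56 to -1.33. In hormone-sensing cells the fitted difference was -0.78 (SE 0.51) from 17 to 35 UMIs a library. It moved to -0.17 without 4OHT 2, to -1.64 without 4OHT 1 and to -1.53 with a class ratio of 5. Both 4OHT libraries lay under both corn oil libraries for 17.6% of 10788 genes in basal cells and 17.5% of 10120 genes in luminal progenitor cells, so such a non-overlap was common among genes. The share was 13.5% of 7589 genes in hormone-sensing cells, where Chil1 overlapped. Summed over a whole library, where fewer cells of a class and less RNA per cell cannot be told apart, Chil1 stood at 580.3, 449.9, 204 and 232 CPM in corn oil 1, corn oil 2, 4OHT 1 and 4OHT 2.

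No gene of the chitinase, receptor, regulator, involution, milk or AP-2 lists passed the treatment test in any class, with edgeR's quasi-likelihood test and Benjamini-Hochberg adjustment over all genes. Across all genes it called 0 of 10788 in basal cells (0%), with 465 at an unadjusted p under 0.05 and 38 called by DESeq2. It called 0 of 10120 in luminal progenitor cells (0%), with 166 at an unadjusted p under 0.05 and 1 called by DESeq2. In hormone-sensing cells it called 1 of 7589 (0.0132%), the cathepsin gene Ctsr, which is in no list. The milk protein gene Csn2 had the lowest fitted value of the lists in both main classes, -4.28 in basal cells, where its UMIs were few, and -2.45 in luminal progenitor cells. In luminal progenitor cells Csn2 stood at 386 and 549 CPM with corn oil and 26.4 and 130 CPM with 4OHT, which did not overlap and did not pass the test. The alpha casein Csn1s1 stood at 644 and 1397 CPM with corn oil and 112 and 265 CPM with 4OHT in the same cells, and also did not pass. Over the lists the median fitted difference in luminal progenitor cells was -0.33 for the 14 of 16 involution and acute phase genes and -0.29 for the 11 of 12 milk genes that passed the count filter, against -0.02 over all genes tested. In basal cells it was -0.03 for 10 involution genes and -0.81 for 9 milk genes, against -0.02. These p-values rest on the spread between 2 mice a group.

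**Figure D3:**
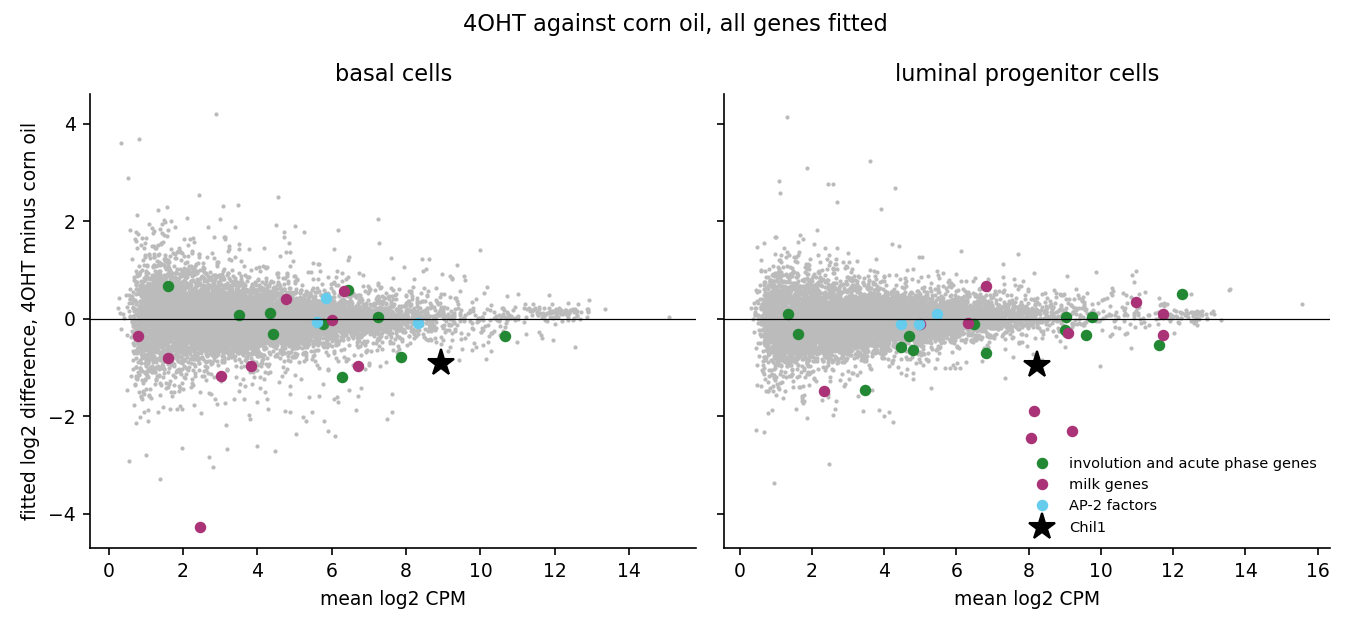
Fitted log2 difference, 4OHT minus corn oil (y axis), against mean log2 CPM (x axis) for each gene tested in basal and luminal progenitor cells. Grey points are all genes, coloured points list genes, and the star is Chil1, at -0.90 and -0.94.

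Cells that fitted no class had the widest gap between the labels. Their Chil1 level was 961 and 553 CPM in corn oil 1 and 2 and 169 and 219 CPM in 4OHT 1 and 2, with group means of 757 ± 289 and 194 ± 34.9 CPM (SD, n = 2 each). Within them, cells with under 5 UMIs of both keratin sums, a subset chosen after its values were seen, had 2121, 706, 389 and 307 CPM in corn oil 1, corn oil 2, 4OHT 1 and 4OHT 2. Corn oil 1 was the highest in this subset too, with 41 of its 140 cells at 10 or more Chil1 UMIs against 20 of 316, 6 of 231 and 4 of 304 in the others. These cells carried the milk-lineage gene Wfdc18 at 1553 to 7609 CPM and Cd14, a luminal progenitor marker, at 265 to 1077 CPM. Of the other luminal progenitor markers, Csn3 was at 1357 to 3946 CPM and Kit at 11.4 to 22.7 CPM. Elf5 (19.7 to 32.5 CPM) and Aldh1a3 (17.7 to 46.9 CPM) lay under their luminal progenitor levels (115 to 179 and 194 to 267 CPM). The basal markers Krt14 (118 to 173 CPM) and Mylk (52.1 to 135 CPM) and the endothelial marker Pecam1 (28.9 to 115 CPM) were also present. The macrophage markers were at 0 to 2.08 CPM each and of the neutrophil markers S100a8 was at 3.61, 14.6, 1.53 and 0 CPM, Csf3r at 1.04 CPM in corn oil 2 and at 0 elsewhere, and the other 3 at 0. Mitochondrial UMIs made up 2.22% to 2.62%. Cells with at least 5 UMIs of both sums had 415, 386, 123 and 181 CPM where the basal sum was higher and 853, 342, 102 and 209 CPM where it was not. Such cells made up 60.3%, 42.1%, 71.4% and 69.5% of the unclassed cells of corn oil 1, corn oil 2, 4OHT 1 and 4OHT 2, and the part of this make-up in the gap between the labels was not tested.

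Macrophages and neutrophils are well known sources of Chil1, so their markers were summed in the 2 classes, and their part in the Chil1 level was not tested. The 5 macrophage markers summed to 0, 0, 0 and 1 UMI in basal cells of corn oil 1, corn oil 2, 4OHT 1 and 4OHT 2, and to 0, 1, 23 and 1 UMI in luminal progenitor cells. The 5 neutrophil markers summed to 2, 16, 4 and 5 UMIs in basal cells and to 35, 302, 42 and 172 UMIs (4.82, 49.9, 5.00 and 27.7 CPM) in luminal progenitor cells. Nearly all of the latter were S100a8, with 301 of the 302 UMIs in corn oil 2, while S100a9 and Retnlg were at 0 in both classes and Ly6g and Csf3r had at most 2 UMIs each. The leukocyte list summed to 7.92 to 20.04 CPM in basal cells and 0.826 to 5.47 CPM in luminal progenitor cells. Cells with leukocyte markers and almost no keratin numbered 27 in corn oil 2 and 13 in 4OHT 1, and 0 in corn oil 1 and 4OHT 2. They held 1 Chil1 UMI (15.9 CPM) in corn oil 2 and 0 in 4OHT 1, which allows up to 79.8 CPM. In these cells the macrophage list had 7 and 0 UMIs and the neutrophil list 0, so they say little of either type.

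Of the genes named Chil, Chil1 alone had counts in these epithelial classes. Chil3, Chil4, Chil5 and Chil6 and the acidic chitinase Chia1 had 0 UMIs in all 3 classes of all 4 libraries. The active chitinase Chit1, the neighbour of Chil1, had 1, 8, 5 and 4 UMIs in luminal progenitor cells and at most 1 in basal cells. Chid1, a lysosomal family member, was at 14.0 to 14.3 CPM in basal cells and 4.76 to 8.94 CPM in luminal progenitor cells, and was lower in the latter by the class test (log2 -0.82, SE 0.20, edgeR adjusted p = 0.00477). Ctbs, which degrades chitobiose, was higher in luminal progenitor than in basal cells (log2 1.16, SE 0.43, edgeR adjusted p = 0.0392) at 0.674 to 1.79 CPM in both, a call that scaling by library totals alone ended. The oviductin gene Ovgp1 did not pass (-0.74, edgeR adjusted p = 0.0987). Of 9 family members other than Chil1, 3 could be tested between these classes, 1 higher and 1 lower, where 55.9% of 11434 genes were called, 26.1% higher and 29.8% lower. With library totals alone, 1924 were higher and 4690 lower, in place of 2988 and 3407, and the median of all genes moved from -0.05 to -0.34.

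The proposed partners of the protein differed between classes in their levels, as many other genes did. Il13ra2, the receptor best known to bind Chil1, and Ptgdr2 had 0 UMIs in all 3 classes. Tmem219, the co-receptor of Il13ra2, was at 11.1 to 22.3 CPM in basal and 24.3 to 36.7 CPM in luminal progenitor cells, and Lgals3, a galectin that binds Chil1, at 47.7 to 98.2 and 1327 to 2815 CPM. Between luminal progenitor and basal cells, 26.1% of 11434 genes were higher in the former and 29.8% lower. Of 5 tested partners, 3 were higher in luminal progenitor cells and 2 lower. The higher ones were Lgals3 (log2 5.13, SE 0.13), Tmem219 (1.19, SE 0.18) and the hyaluronan receptor Cd44 (0.55, SE 0.18), of which Cd44 lost its call with library totals alone. The lower ones were Il13ra1, a signalling chain of the interleukin-13 receptor (-0.56, SE 0.15), and the heparan sulfate carrier Sdc1 (-0.93, SE 0.21). Against hormone-sensing cells, where 51% of 10493 genes were called, 25.9% higher and 25.1% lower, Cd44 (3.46, SE 0.26) and Lgals3 (1.95, SE 0.19) were higher in luminal progenitor cells, Il13ra1 and Sdc1 lower, and Tmem219 did not pass. Library totals alone gave 1895 higher and 3500 lower calls there, in place of 2721 and 2633.

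Most inflammatory and luminal regulators differed between the classes. Stat3, which drives involution, was at 166 to 201 CPM in basal and 130 to 192 CPM in luminal progenitor cells and did not pass the test between them (log2 0.05, SE 0.12). Of 10 tested regulators, 7 were higher in luminal progenitor than in basal cells, where 26.1% of all genes were higher, among them Elf5, the luminal progenitor factor (6.76, SE 0.20), and the NF-kB inhibitor Nfkbia (2.51, SE 0.21). Il6 (-2.40, SE 0.49) and the STAT inhibitor Socs3 (-3.05, SE 0.24) were lower. The involution and acute phase genes were placed on the luminal side, with 13 of 14 higher than in basal cells, against the same 26.1%, and Osmr, an oncostatin M receptor chain, lower (-0.81, SE 0.13). Their median log2 difference was 2.80, against -0.05 over all genes and -0.44 for Chil1. Against hormone-sensing cells, where 25.9% of all genes were higher, 13 of 14 were higher with Osmr not passing, the median was 4.80, and Chil1 was at 4.39. Csn3, Wfdc18 and Ltf are left out of the class counts because they helped to split luminal cells. Of the other milk genes tested, 8 of 8 were higher in luminal progenitor cells than in either other class, against 26.1% and 25.9% of all genes. Luminal cells with more Wfdc18, Csn3 and Ltf than Ly6d, Fxyd2 and Gpx3 were called progenitors. Genes that vary with Wfdc18, Csn3 and Ltf were therefore not independent of the split from hormone-sensing cells. Tfap2c itself was lower in luminal progenitor than in basal cells (-2.61, SE 0.15), as was Tfap2b (-1.09, SE 0.17), and Tfap2a did not pass. Scaling by library totals alone ended the calls of Cebpb, Nfkb1, Rela, Saa2 and Tgfb3 against basal cells and of Clu and Nfkb1 against hormone-sensing cells.

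Within a class, cells with a Chil1 UMI differed from those without. Thinned positive and negative cells were compared by the log2 ratio of their CPM in each library, with a prior count of 1, and no test applies because Chil1 chose the cells. In basal cells 14.9% of 4169 genes were higher in positive cells in all 4 libraries and 21.4% lower, and in luminal progenitor cells 30.1% of 3559 genes were higher and 14.2% lower. The median log2 ratio over these genes was -0.01 in basal cells and 0.17 in luminal progenitor cells, so the latter ratios were shifted upwards as a whole. The contrast used 286 to 626 positive cells per library in basal cells and 209 to 254 in luminal progenitor cells.

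In both classes the interferon-induced GTPase Iigp1 led the genes that were higher in Chil1-positive cells. Basal positive cells had Iigp1 at 185, 194, 43.8 and 20.8 CPM in corn oil 1, corn oil 2, 4OHT 1 and 4OHT 2, against 39.3, 35.6, 12.7 and 7.59 CPM in negative cells. Luminal progenitor positive cells had 168, 154, 207 and 14.4 CPM, against 12.6, 35.3, 20.1 and 2.75 CPM. Positive cells were thus above negative ones in each library, although the level itself differed widely between libraries. The 4OHT 2 values rest on few Iigp1 UMIs, 20 in positive and 20 in negative basal cells, with lower levels still in luminal progenitor cells. In basal cells the other genes that stood out upwards were Fabp5, Fgg, Lbp, Trf, Irgm1, Tmem176a, Wif1, Ifi47 and Lgals9. Irgm1 and Ifi47 are also interferon-induced GTPases, and Lbp binds bacterial lipopolysaccharide. Among luminal progenitors they were Nqo1, Wfdc12, Ifi44, Gbp2, Spp1, Lbp, Xaf1, Isg15 and Gbp7. Of these, Ifi44, Gbp2, Gbp7, Xaf1 and Isg15 are interferon-induced. Isg15 was at 385, 586, 649 and 223 CPM in positive and 66.4, 189.8, 98.6 and 55.0 CPM in negative cells. Spp1, the osteopontin gene, was at 12071, 6901, 7775 and 6840 CPM in positive and 1544, 1883, 888 and 2121 CPM in negative cells.

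The genes lower in Chil1-positive basal cells were led by Derl3, with log2 ratios of -2.79 to -1.60, and included Aldh1l2, Stc2, Got1, Creld2, Acot2, Pla2g12a, Angptl6, Ankrd1 and Sdf2l1. Derl3, Creld2 and Sdf2l1 encode proteins of the endoplasmic reticulum that are induced by unfolded protein. Creld2 was at 58.6, 68.8, 47.3 and 103 CPM in positive and 230, 317, 141 and 253 CPM in negative basal cells, so the groups did not overlap. For luminal progenitors the list was Fgg, Ptn, 1810032O08Rik, Tubb2b, Fam107b, Usp6nl, Ankrd33b, Wnt7b, Ppan and Hnrnpd, of which Usp6nl, Wnt7b and Ppan went both ways when cells were thinned to 1000 UMIs. Fgg, a fibrinogen chain, went opposite ways. It was at 75.3, 117, 87.5 and 69.6 CPM in positive and 32.6, 37.4, 42.5 and 27.7 CPM in negative basal cells, but at 1.97, 2.14, 2.38 and 14.4 CPM in positive and 28.2, 82.8, 18.7 and 44.5 CPM in negative luminal progenitor cells.

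**Figure D4:**
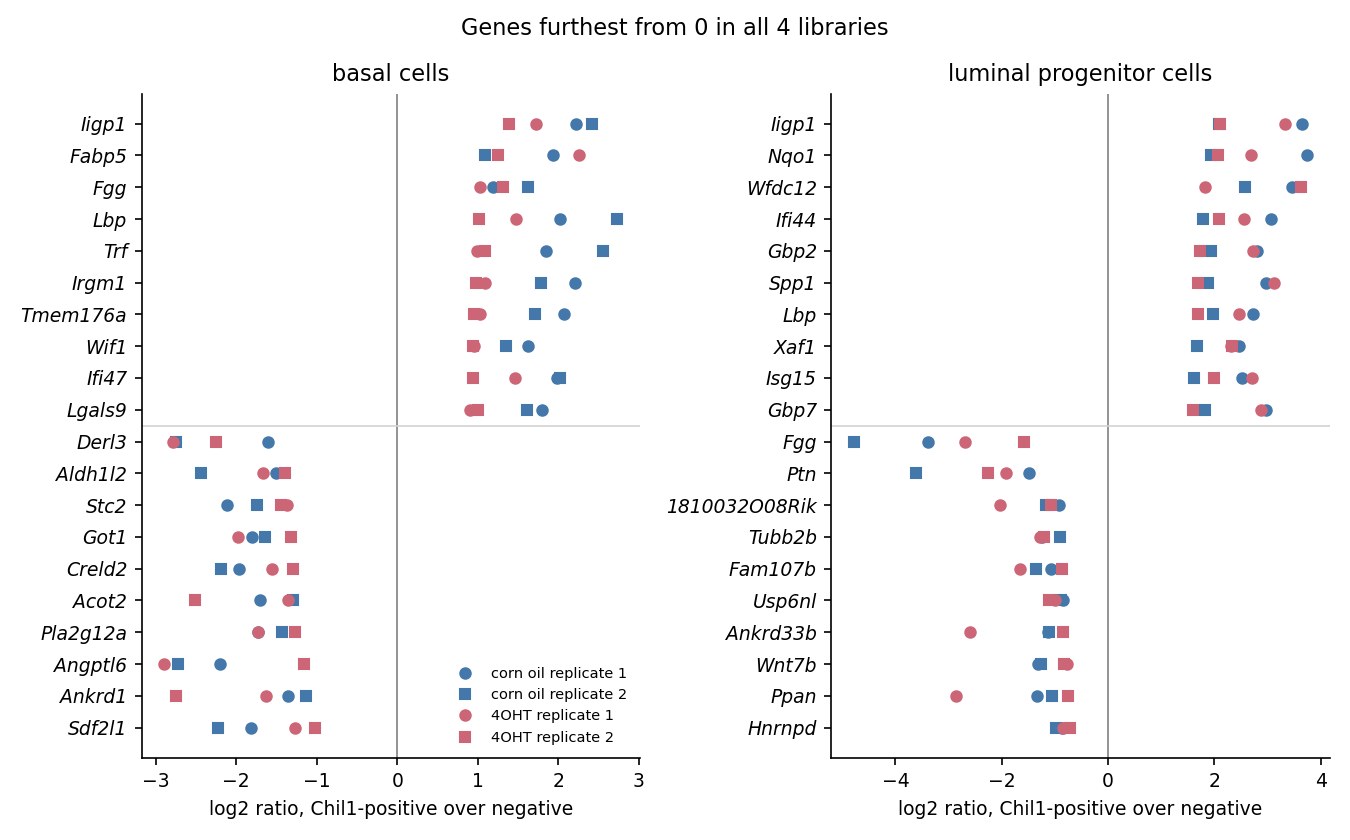
Log2 ratio (x axis) of CPM in Chil1-positive over Chil1-negative thinned cells for the 10 genes furthest above and the 10 furthest below 0 in all 4 libraries, by class. Colour marks the group and shape the replicate. Iigp1 leads upwards in both panels. Fgg lies above 0 in basal and below 0 in luminal progenitor cells, where positive cells held few Fgg UMIs.

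Involution and acute phase genes were mostly higher in Chil1-positive luminal progenitor cells, and milk genes were so less steadily. Of the 11 involution and acute phase genes that averaged 20 CPM or above, 10 were higher in positive cells in all 4 libraries and 0 lower, where 30.1% of genes were higher. Cd14, the lipopolysaccharide co-receptor, was at 1362, 1189, 2883 and 625 CPM in positive and 246, 392, 484 and 182 CPM in negative cells. The log2 ratio ranged from 1.69 to 2.73 for Lbp, 1.43 to 2.62 for Igfbp5, which encodes an IGF-binding protein of involution, and 0.52 to 1.19 for the siderophore-binding lipocalin Lcn2. Of 10 milk genes 6 were higher and 0 lower. Thinned to 1000 UMIs, only Csn3 (0.83 to 1.08 at 2000 UMIs) and Wfdc18 were higher in all 4 libraries. Both are among the genes that split luminal cells in the class rule. At 1000 UMIs the involution count was 9 of 11, for which the share over all genes is not given. Of 8 regulators 1 was higher, Stat3 (0.72 to 1.28), where 30.1% of genes were higher. Another 2 were lower, Nfkbia (-0.98 to -0.20) and Elf5 (-0.33 to -0.02), where 14.2% of genes were lower. Elf5 went both ways at 1000 UMIs.

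In basal cells 4 of 7 involution genes were higher in all 4 libraries, Lbp, Igfbp5 (0.58 to 1.80), Lcn2 (0.70 to 1.34) and Clu, where 14.9% of genes were higher. The count was 6 at 1000 UMIs and 3 with the highest doublet scores left out, where Clu reached -0.32 in 1 library. The share over all genes is not given for either setting, so these counts have no baseline. Stat3 (0.37 to 0.69), Cebpb, Cebpd and Nfkbia were higher among 7 regulators, and 7 of 7 were at 1000 UMIs, again without a share over all genes. Of the partners, Il13ra1 (0.56 to 1.22), Cd44 and Sdc1 were higher and Lgals3 lower (-0.69 to -0.23), and Lgals3 was lower in luminal progenitor cells too (-1.17 to -0.46). At 1000 UMIs Lgals3 was still lower in both classes, but Il13ra1, Cd44 and Sdc1 went both ways in basal cells, with lowest values of -0.31, -0.03 and -0.10. Tfap2c was lower in Chil1-positive basal cells in all 4 libraries, at 212, 176, 203 and 298 CPM against 451, 359.9, 286 and 345 CPM in negative cells. The ratio was further from 0 in corn oil 1 and 2 (-1.09 and -1.03) than in 4OHT 1 and 2 (-0.49 and -0.21), a difference that was not tested. Tfap2c in luminal progenitor cells went both ways, from -0.46 to 0.46. The contractile gene Myh11 (-0.81 to -0.41) and the oxytocin receptor Oxtr (-0.69 to -0.32), both basal markers, were lower in positive basal cells, while the basal keratin Krt14 was higher (0.12 to 0.36).

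**Figure D5:**
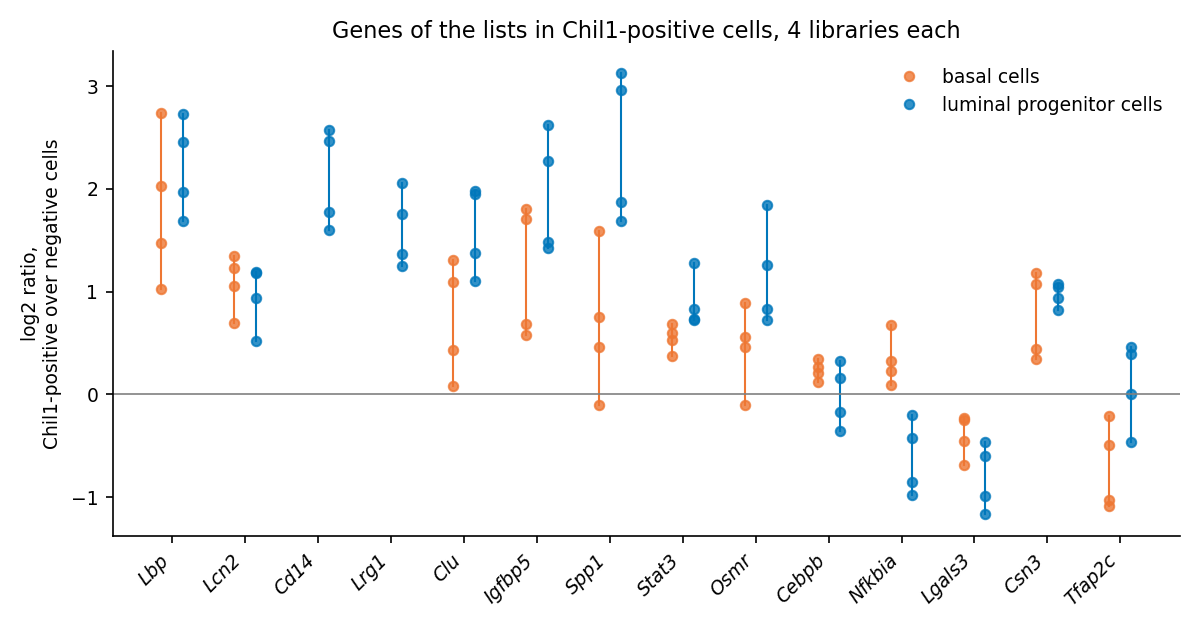
Log2 ratio (y axis) of CPM in Chil1-positive over Chil1-negative thinned cells for 14 list genes, with 1 point per library and a line over their range. Genes under 20 CPM in a class have no points there. Lbp, Lcn2, Igfbp5, Clu, Stat3 and Csn3 lie above 0 in both classes, Lgals3 lies below, and Tfap2c lies below 0 in basal cells only. In basal cells Csn3 reached -0.48 in 1 library at 1000 UMIs and Clu -0.32 without the highest doublet scores.

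Over the 12 sums of 4 libraries and 3 classes, the genes whose level was most like that of Chil1 were Rab11fip5, Efna5, Hspa5, Esd, Hacd2, Eif6, Pdia6, Pdk4, Nars and G0s2, out of 4140 genes compared. Their Pearson correlations of log2(CPM + 1) ran from 0.95 for G0s2 to 0.97 for Rab11fip5. The 12 points share libraries, depth and the low values of hormone-sensing cells. Hspa5, the endoplasmic reticulum chaperone, was at 274 to 480 CPM in hormone-sensing cells and 1391 to 4057 CPM in the other 2 classes. By Spearman's rho none of the 10 was among the 10 most alike.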

How the data were processed

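The authors deposited raw UMI counts per gene and cell for 4 libraries, made with Cell Ranger 3.0.1 on mm10, per the submitters' processing notes. Strand, use of introns and cell calling settings are not given in the sources used here, so overlapping and antisense genes could share reads. Cells with at least 1000 UMIs were kept. Basal cells had a basal keratin and actin sum of at least 5 UMIs and over 3 times the luminal sum, luminal cells the reverse. Luminal cells were hormone-sensing with at least 3 UMIs of Ly6d, Fxyd2 and Gpx3 that exceeded Wfdc18, Csn3 and Ltf, and progenitors otherwise. Endothelial cells had under 5 keratin UMIs and at least 5 UMIs of Pecam1, Cdh5, Cldn5 and Egfl7. Doublets and shared barcodes were kept, and leaving out top Scrublet scores (scanpy 1.11.5, 0.8% per 1000 cells) or shared barcodes were alternatives.

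CPM were computed here from the deposited counts, with limits of 3 counts for a count of 0. Class sums were fitted in edgeR 4.0.16 (R 4.3.3; TMM, filterByExpr, quasi-likelihood F-test, adjusted p under 0.05), with DESeq2 1.42.0 as an alternative, and the scripts were tested on simulated data. The SE of an edgeR fit was derived as the absolute log2 difference over the square root of its F statistic. Library was a block between classes. Alternatives changed the scaling, gene filter, cell minimum, class limits, thinning depth and libraries. Chil1, the gene lists and the tests were chosen with earlier results of these data known. Named were Chil1, list members, the 10 genes most alike by Pearson's r over library and class sums, and the 10 genes in each direction whose ratio nearest to 0 over the 4 libraries was largest in Chil1-positive against negative cells, with a mean of at least 20 CPM. Positions come from GENCODE M21 and promoters from RefSeq GRCm38.p6.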

Additional observations from a re-analysis of the deposited data

Results flagged for a closer look

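For 4 list genes, both 4OHT libraries lay on one side of both corn oil libraries in one class and on the other side in another class. Of 7281 genes tested in all 3 classes, 554 (7.61%) changed side in this way. The difference between the classes was not tested for any of them, and none passed the treatment test. The ratio of the 4OHT mean to the corn oil mean of Sdc1, a proposed Chil1 partner, was 0.662 in basal cells and 1.61 in hormone-sensing cells. For Clu, the clusterin gene of involution, it was 1.47 in basal and 0.746 in luminal progenitor cells. For Lrg1, an acute phase gene, it was 0.869 in luminal progenitor and 1.34 in hormone-sensing cells. For the AP-2 factor Tfap2b it was 1.3 in basal and 0.914 in hormone-sensing cells. Chil1 had no such change of side.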

How the results depend on the processing

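The fitted Chil1 difference between 4OHT and corn oil stayed negative in all 3 classes under the alternatives run, and no result was counted as reversed. In hormone-sensing cells the groups overlapped in CPM, and the fitted value moved to -0.17 without 4OHT 2. The shared sign therefore says little for that class. Of the main results' alternatives, 175 were counted as the same and 27 as moved. A Chil1 difference counted as the same if it moved by less than the SD between libraries. A call count did so if it stayed within a set fold of the main count. Being counted as the same thus does not mean that a value was kept. Leaving out 1 library at a time, with the lone library assumed to vary like the others, gave log2 values of -0.56 to -1.33 for Chil1 in basal cells and -0.20 to -1.42 in luminal progenitor cells. It gave 17 to 127 called genes in basal, 31 to 64 in luminal progenitor and 4 to 80 in hormone-sensing cells. The cause was not tested. Replicate numbers are shared only as numbers: deviations of equal numbers correlated at 0.728, 0.469 and 0.238 in the 3 classes over 2 pairs. With the replicate block, 167, 9 and 3 genes were called and Chil1 was at -0.92, -0.83 and -0.82. Without a gene filter the calls were 93, 39 and 59, and with DESeq2 38, 1 and 7. The hormone-sensing call was lost, at 0, with a 2000 UMI minimum and with hormone-sensing cells set at 6 UMIs. Thinned to 1000 UMIs, the mean hormone-sensing share of positive cells differed by -1.11 percentage points, 4OHT minus corn oil, against -3.58 at 2000. At 1000 UMIs the groups overlapped, with 3.97% and 0.606% in corn oil 1 and 2 and 1.25% and 1.12% in 4OHT 1 and 2. Of the 10 genes most alike by Pearson's r, 0 were among the 10 by Spearman's rho. Among the named genes, 40 alternatives lost a call and 25 gained one. With 2 libraries a group, and 17 to 35 Chil1 UMIs a library in hormone-sensing cells, small differences were not detectable.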
